A study of Mus musculus with 6 samples.

Results

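The 7 genes described here (Hmgcs1, Sqle, Insig1, Srebf2, Idi1, Fdft1 and Cyp51) belong to the pathway by which cells make cholesterol and sense its level. They were taken by name, not by their values, from a table of 55471 genes, and all 7 were found by Ensembl identifier. The list carries the working name cholesterol synthesis and uptake genes, but it holds 5 enzymes of synthesis and 2 regulators. Genes of uptake proper, such as Lrp1, were read here as part of a list of 37 other pathway genes. RNA-seq was performed on the hippocampus of individual male C57BL/6 mice, 3 of them p300-ifKOs and 3 their control littermates. A p300-ifKO (inducible forebrain knockout) mouse carries floxed Ep300, the gene of the lysine acetyltransferase p300, and creERT2, a tamoxifen-dependent Cre recombinase driven by Camk2a in excitatory forebrain neurons. All mice of both groups were between 3 and 6 months old and received 5 intragastric doses of tamoxifen (20 mg/ml in corn oil), and p300-ifKO hippocampus was sampled about 1 month after ablation. By the protocol the controls lack creERT2, yet the library descriptions of the controls do name Camk2a_creERT2. Recombined Ep300 still gives a truncated protein that lacks acetyltransferase activity. The driver is not known to act in interneurons, glia or vessels, and the RNA was that of whole hippocampus.

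Cholesterol does not cross from blood into the adult brain in lipoproteins, so neurons and glia depend on sterols made within the brain. Acetyl-CoA is turned into mevalonate and then into farnesyl diphosphate, squalene synthase (Fdft1) commits it to sterols, and a long series of enzymes turns squalene into cholesterol. When sterols are scarce, the transcription factor SREBP2, encoded by Srebf2, is escorted by SCAP from the endoplasmic reticulum, cleaved, and raises transcription of nearly all these enzymes. When sterols are abundant, INSIG1 holds SCAP back. Tamoxifen is known to bind late enzymes of the pathway, EBP and DHCR7 among them. Both groups had received tamoxifen and no untreated mouse was included. The comparison asked whether the 7 genes differed between p300-ifKOs and controls after tamoxifen. By the protocol the groups also differed in creERT2, whose effect cannot be told apart from that of p300 loss. The effect of tamoxifen itself cannot be told apart from the common state of all 6 mice.

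The labels were first checked on the targeted gene. Ep300 measured 1545, 1474 and 2334 normalized counts (counts divided by the size factor of the library) in control replicates 1 to 3, and 478, 1350 and 912 in p300-ifKO replicates 1 to 3. All p300-ifKO values lay below all control values, and the p300-ifKO mean was lower by a log2 value of -0.97 (SE 0.33), with an adjusted p = 0.991 by DESeq2. Without p300-ifKO replicate 2 the log2 fold change of Ep300 was -1.36 (adjusted p = 0.000356 by DESeq2), in a fit that called 8.43% of the genes with an adjusted p. The log2 fold change of Ep300 was -0.66 when p300-ifKO replicate 1 and -0.72 when control replicate 3 was left out, each with an adjusted p of 1. Esr1, part of which is in creERT2, was higher in p300-ifKOs by 4.96 on the log2 scale (adjusted p = 4.47e-92 by DESeq2). Control values of Esr1 did not exceed 109 normalized counts. Total counts ran from 23151568 to 28433823 per library. The 8 markers of excitatory neurons summed to between 161951 and 186984 normalized counts in every library.

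The libraries stood apart from each other by transcript length. In each library, the deviation of each gene from its mean over the 6 libraries was ranked against exonic length. Spearman's rho was -0.50 in p300-ifKO replicate 1 and -0.28 in p300-ifKO replicate 3, against 0.41 in p300-ifKO replicate 2 and between 0.16 and 0.41 in the controls. Long transcripts thus tended to be low in the former and high in the latter libraries. Results for the sterol genes are given below with and without these libraries, and with offsets that remove the trend with length and GC content in each library. Ep300 is long, at 14273 exonic bases, and with these offsets its log2 fold change was -0.83 (adjusted p = 0.923 by DESeq2).

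No difference between p300-ifKOs and controls passed the test for any of the 7 genes. Across all 32773 genes with a p-value, 2 (0.0061%) passed an adjusted p of 0.05 in DESeq2, Esr1 and Arsi, a gene beside Camk2a on the driver transgene, and 0 of the 7 did. The unadjusted p was under 0.05 for 432 of all genes by DESeq2 and for 394 of 17131 by edgeR, and for 0 of the 7 by either tool. The 2 groups overlapped for every one of the 7, while among all genes tested 6.64% had groups that did not overlap. Of the 7, 3 were higher and 4 lower in the p300-ifKO mean, with a median log2 fold change of -0.012, beside -0.046 over all genes tested. The plot of counts by library shows the overlap of each gene.

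**Figure D1:**
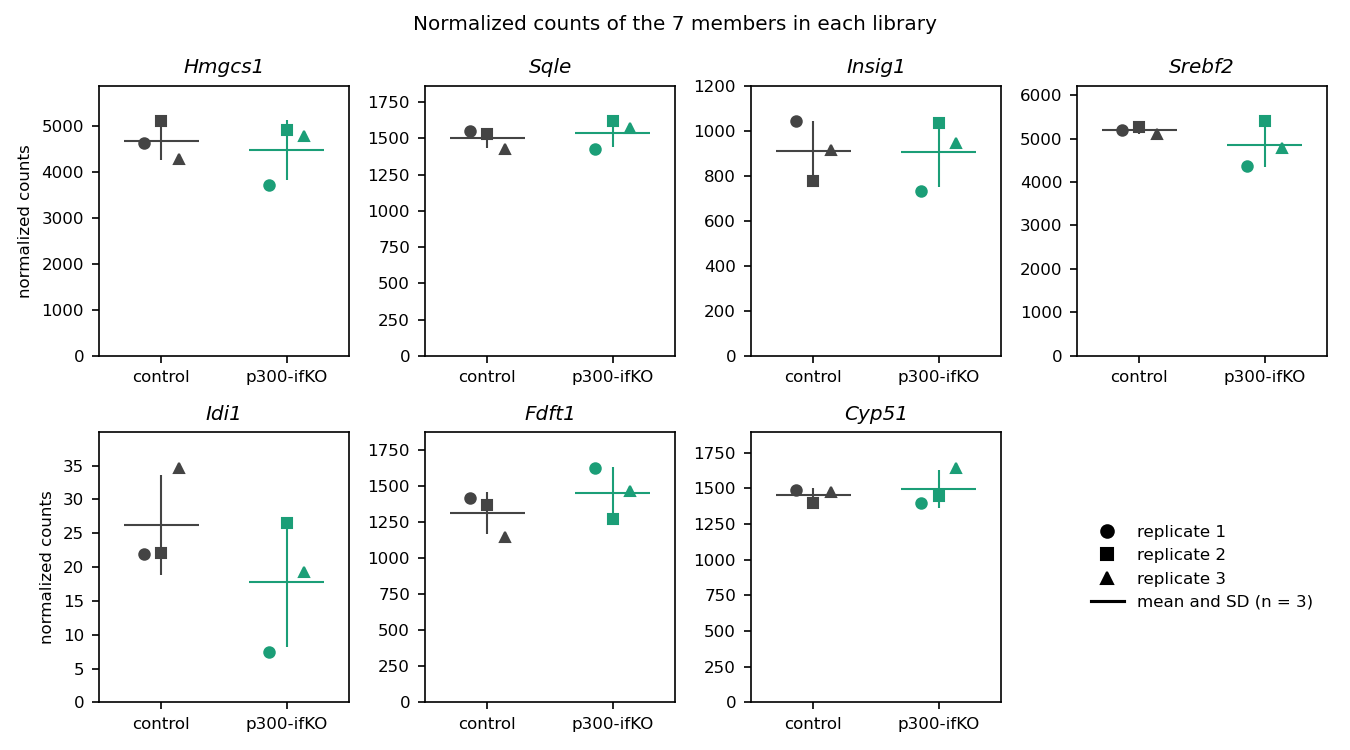
Normalized counts (y axis, from 0) of each of the 7 genes in the 3 control (grey) and 3 p300-ifKO (green) libraries, with replicates 1 to 3 as circle, square and triangle, and the group mean and SD as lines. The groups overlap in every panel, the green circle is the lowest point or level with it for 6 genes and the highest for Fdft1, and Idi1 stays under 35 normalized counts.

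Hmgcs1 (ENSMUSG00000093930, GRCm38, chr13:119690379-119708260, plus strand) encodes the cytosolic HMG-CoA synthase, which condenses acetyl-CoA units at the start of the mevalonate arm. Its normalized counts were 4625, 5106 and 4291 in control replicates 1 to 3 and 3729, 4923 and 4789 in p300-ifKO replicates 1 to 3. The lowest value was that of p300-ifKO replicate 1, and the other p300-ifKO values lay within the control range. The log2 fold change was -0.061 (95% interval -0.37 to 0.24), and the difference of the means was smaller than the spread within either group (SD 410 in controls around a mean of 4674, and 654 in p300-ifKOs around 4480). Gm48342 overlaps 12.1% of the exonic bases of Hmgcs1 on the opposite strand, and reads there are uncertain.

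Idi1 (ENSMUSG00000058258, chr13:8885501-8892451, plus strand) encodes the isomerase that interconverts the isoprene units used to build farnesyl diphosphate. It measured 21.9, 22.1 and 34.7 normalized counts in controls and 7.52, 26.5 and 19.3 in p300-ifKOs, from raw counts between 7 and 34 per library. The single highest value was in a control and the lowest in p300-ifKO replicate 1, but p300-ifKO replicate 2 exceeded the remaining controls. The log2 fold change of -0.55 was the lowest of the 7, and its interval of -1.59 to 0.49 was the widest (unadjusted p = 0.303 by DESeq2). Of the 50-base stretches of its exons, 25.3% also occur in exons of other genes, mainly the processed pseudogene Gm13502, and reads from such stretches are uncertain. Idi1 also overlaps Gm48574 on the opposite strand.

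Fdft1 (ENSMUSG00000021273, chr14:63145150-63179578, minus strand), the squalene synthase, was the only one of the 7 whose highest library was p300-ifKO replicate 1. The values were 1421, 1369 and 1146 in controls and 1628, 1272 and 1467 in p300-ifKOs. Its log2 fold change of 0.15 (-0.16 to 0.46) was the highest of the 7, and the lowest p300-ifKO value lay below 2 of the controls. Ctsb, a lysosomal protease gene counted at between 13682 and 16984 normalized counts, overlaps 18.3% of the exonic bases of Fdft1 on the opposite strand. Ctsb measured 14823, 14929 and 14008 in controls and 16984, 13682 and 15179 in p300-ifKOs. Both genes were highest in p300-ifKO replicate 1, followed by p300-ifKO replicate 3. Both were low in control replicate 3 and p300-ifKO replicate 2, the former being the lowest for Fdft1 and the latter for Ctsb. The strand setting of the counting is not stated, and the part of Ctsb reads in the Fdft1 values was not tested.

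Sqle (ENSMUSG00000022351, chr15:59315077-59331192, plus strand) encodes squalene epoxidase, a rate-limiting step of the sterol arm. Its counts were close in all mice, 1553, 1531 and 1426 in controls and 1425, 1619 and 1574 in p300-ifKOs, and the highest value was 1.14 times the lowest. That was the narrowest range of the 7, and only 0.0358% of its 50-base stretches occur in other genes. The log2 fold change was 0.035 (-0.20 to 0.27).

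Cyp51 (ENSMUSG00000001467, chr5:4081145-4104746, minus strand), the lanosterol demethylase, measured 1490, 1394 and 1475 in controls and 1394, 1447 and 1644 in p300-ifKOs. Its highest value was in p300-ifKO replicate 3, and control replicate 2 and p300-ifKO replicate 1 were level at the bottom. The log2 fold change was 0.041 (-0.20 to 0.29). The intervals of Sqle, Cyp51 and Srebf2 were the narrowest of the 7, each within 0.34 of 0 on the log2 scale.

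Both regulators gave small differences. Srebf2 (ENSMUSG00000022463, chr15:82147181-82205379, plus strand) was tight in controls, at 5193, 5262 and 5114 normalized counts, and more spread in p300-ifKOs, at 4373, 5399 and 4787. The p300-ifKO values lay on both sides of the control range. The log2 fold change was -0.10 (-0.34 to 0.15). Insig1 (ENSMUSG00000045294, chr5:28071363-28078662, plus strand), itself a target of SREBP2 and so a sensor of sterol state, had the smallest difference of the 7, at -0.012 (-0.38 to 0.35), on values of 1044, 780 and 916 in controls and 734, 1036 and 948 in p300-ifKOs. Its spread within each group (SD 132 and 155) was far larger than the difference of the means, 913 and 906. The adjusted p was 0.991 for 6 of the genes and 0.997 for Insig1 (DESeq2).

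Levels between genes were compared only per length, as RPKM, that is, counts scaled by exonic length and by the total counts of the library, over all 6 libraries. Hmgcs1 stood highest at a mean of 39.9 RPKM (32.6 to 43.7), followed by Srebf2 at 28.0 (24.5 to 29.9), and these ranges did not overlap each other or that of the next gene. Fdft1 (13.5), Cyp51 (13.4), Insig1 (11.8) and Sqle (11 RPKM) formed a run in which each range overlapped that of its neighbour. Idi1, at 0.251 RPKM (0.0863 to 0.398), was below Sqle in 6 of 6 libraries. Of the stretches of Idi1 exons, 25.3% also occur in exons of other genes, as given above. Only reads above a mapping quality of 10 were kept, which lowers counts of genes with near-identical copies, while RPKM used the full exonic length. The part of these shared stretches in the low level and rank of Idi1 was not tested. Among the 44 pathway genes read here Hmgcs1 ranked 3 and Srebf2 ranked 4 by RPKM, after Apoe (684), the main apolipoprotein of the brain, and Cyp46a1 (56.6), the neuronal hydroxylase through which cholesterol leaves the brain, whereas Idi1 ranked 44. In this bulk RNA, fewer cells of a type and less RNA per cell cannot be told apart.

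The promoters of the genes at both ends of this order and of Srebf2 are shown, since SREBP2 with its partners NF-Y and Sp1 is known to act on promoters of the pathway. RefSeq promoter windows (GRCm38.p6), from 250 bases before to 50 after the start, were at hand for 5 of the 7, Hmgcs1, Insig1, Srebf2, Idi1 and Cyp51. Windows lie at chr13:119690101-119690400 for Hmgcs1, chr15:82147019-82147318 for Srebf2 and chr13:8885356-8885655 for Idi1, all on the plus strand. Capitals mark a sterol regulatory element, the SREBP motif TCACNCCAC, and the NF-Y box CCAAT, which reads ATTGG on the other strand.
Hmgcs1: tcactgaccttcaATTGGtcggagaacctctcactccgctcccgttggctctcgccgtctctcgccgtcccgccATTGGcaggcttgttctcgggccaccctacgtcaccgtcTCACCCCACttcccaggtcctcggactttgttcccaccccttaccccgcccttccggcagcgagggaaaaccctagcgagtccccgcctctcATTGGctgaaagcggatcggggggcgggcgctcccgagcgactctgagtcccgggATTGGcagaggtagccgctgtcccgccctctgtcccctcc
Srebf2: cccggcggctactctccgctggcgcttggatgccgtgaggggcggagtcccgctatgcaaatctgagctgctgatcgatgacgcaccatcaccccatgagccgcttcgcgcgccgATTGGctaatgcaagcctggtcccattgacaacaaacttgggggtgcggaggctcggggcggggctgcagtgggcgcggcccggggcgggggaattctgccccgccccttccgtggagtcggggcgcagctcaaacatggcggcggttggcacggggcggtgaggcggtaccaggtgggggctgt
Idi1: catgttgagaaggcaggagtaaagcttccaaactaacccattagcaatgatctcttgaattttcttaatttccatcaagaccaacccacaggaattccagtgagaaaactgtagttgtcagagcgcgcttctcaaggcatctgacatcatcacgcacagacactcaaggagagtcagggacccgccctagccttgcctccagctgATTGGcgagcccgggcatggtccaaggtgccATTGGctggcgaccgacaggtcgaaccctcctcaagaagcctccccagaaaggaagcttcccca
Both strands of 32851 windows were searched, and no 2 of the marked letters overlap. The sterol regulatory element was in 1.24% of all windows and in 1 of the 5, Hmgcs1, as TCACCCCAC from -137 to -129 relative to the start. The NF-Y box was in 5 of 5, beside 37.4% of all windows, with 4 copies in Hmgcs1, 2 in Idi1 and 1 in Srebf2. The Sp1 box GGGCGG was also in 5 of 5, beside 35.7% of all, and the E-box CACGTG was in 1, Insig1, beside 7.15%. Of the other pathway genes, 31 had windows, 45 in number, and a gene was counted if any of its windows held the motif. Of these 31, 0 held the SREBP motif, 21 the NF-Y box, 25 the Sp1 box and 5 the E-box. These counts are by gene, so they cannot be set against the shares above, which are by window. These are matches of letters in a short window, and a window without a match says nothing about the factor.

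The other pathway genes gave the same count as the 7. Of 37 genes, all measured, 20 were higher and 17 lower in p300-ifKOs, with a median log2 fold change of 0.024, and 0 passed the threshold in either direction. The smallest unadjusted p was 0.0596 (DESeq2), that of Mvd. The plot of fold changes by role shows that the interval of every one of the 44 genes includes 0.

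**Figure D2:**
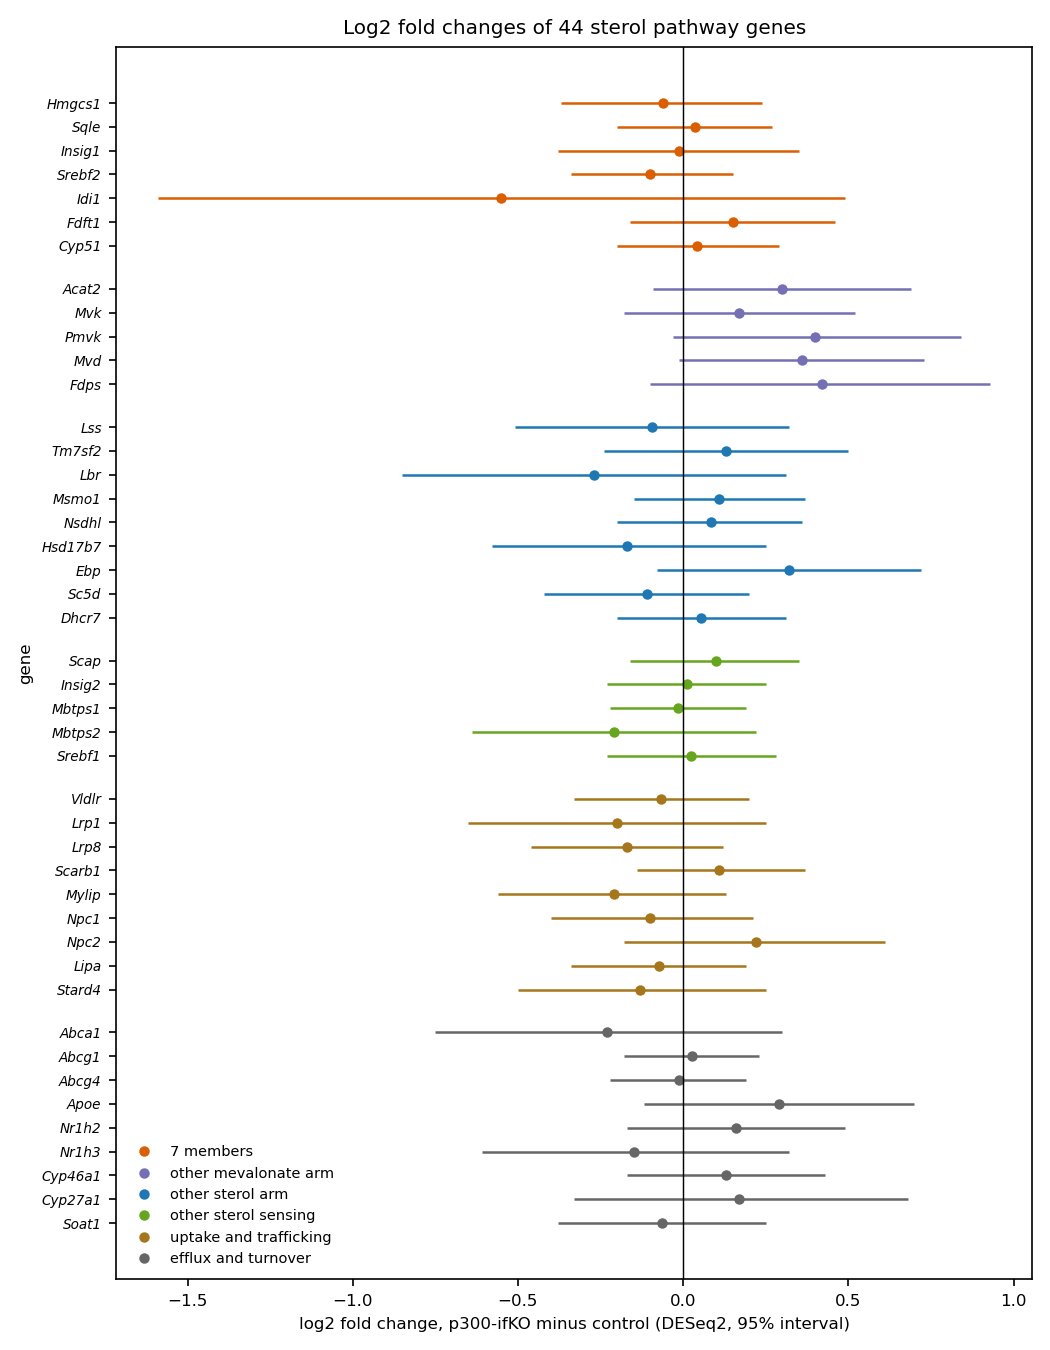
Log2 fold change (x axis, p300-ifKO minus control, with DESeq2 95% intervals) of the 7 genes and of 37 other sterol pathway genes (y axis), coloured by role. Every interval crosses 0, the 5 other mevalonate arm genes shown lie right of 0, and Idi1, low in counts, has the widest interval.

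The list held 5 other enzymes of the mevalonate arm, which are not all of that arm. Hmgcs1 and Idi1, which belong to the same arm, were lower in the p300-ifKO mean, at -0.061 and -0.55. All 5 other enzymes were higher, with a median log2 fold change of 0.36, and 0 passed the test, so the count speaks for these 5 and not for the arm. The median was 0.16 without p300-ifKO replicate 1, and 0.071 with 1 surrogate variable, where Mvk was at -0.028. Fdps, the farnesyl diphosphate synthase, had the highest value at 0.42 (-0.10 to 0.93), with 108, 89.3 and 76.5 normalized counts in controls and 150, 97.2 and 120 in p300-ifKOs, although 26.2% of its stretches are shared with other genes, mainly Gm43738. Pmvk (phosphomevalonate kinase) measured 855, 800 and 738 in controls and 1379, 758 and 1031 in p300-ifKOs, a log2 fold change of 0.40 (-0.031 to 0.84). In all 5 genes, p300-ifKO replicate 1 was the highest library, and without it Fdps was at 0.24 and Pmvk at 0.16. The same library was the highest for 39.9% of all genes with a mean of at least 100 normalized counts. The 5 genes had exonic lengths from 1713 bases (Pmvk) to 4208 bases (Fdps). Acat2, another of the 5, has 39.1% of its stretches shared with other genes, mainly Acat3.

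The sterol arm between squalene epoxide and cholesterol split into 5 higher and 4 lower of the 9 genes listed, from Lbr at -0.27 to Ebp at 0.32, and 0 passed the test. Ebp, the sterol isomerase that binds tamoxifen, had 382, 364 and 373 normalized counts in controls and 600, 385 and 413 in p300-ifKOs. Ebp was the 1 gene of the 37 whose groups did not overlap, beside 6.64% of all genes, and its unadjusted p was 0.117 (DESeq2). Its log2 fold change of 0.32 was 0.10 without p300-ifKO replicate 1. Dhcr7, which catalyses a final reduction to cholesterol, measured 886, 844 and 799 in controls and 815, 864 and 944 in p300-ifKOs (log2 fold change 0.053, -0.20 to 0.31). The intervals of both genes included 0.

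Sterol sensing and cholesterol handling gave no call either. Of the 5 other genes of SREBP processing, 3 were higher and 2 lower, from the protease gene Mbtps2 at -0.21 to the escort Scap at 0.10, which were -0.0074 and 0.017 without p300-ifKO replicate 1. Uptake and trafficking held 2 higher and 7 lower of the 9 genes listed. With length and GC offsets this balance turned to 6 higher and 3 lower (median from -0.10 to 0.076), and with 1 surrogate variable it was 5 and 4. With DESeq2 size factors the genes ran from Mylip, a ubiquitin ligase that degrades lipoprotein receptors, at -0.21 (-0.56 to 0.13), to Npc2, which carries cholesterol out of lysosomes, at 0.22 (-0.18 to 0.61). Npc2 measured 1537, 1622 and 1517 normalized counts in controls and 2317, 1345 and 1772 in p300-ifKOs, so that both its highest and its lowest library were p300-ifKOs, and its log2 fold change was -0.0021 without p300-ifKO replicate 1. Efflux and turnover held 5 higher and 4 lower of 9, from the exporter Abca1 at -0.23 (-0.75 to 0.30) to Apoe at 0.29 (-0.12 to 0.70). Without p300-ifKO replicate 1 Abca1 was at -0.0063 and Apoe at 0.039.

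The library p300-ifKO replicate 1 lay at an end of the order for each of the 7 genes. With DESeq2 size factors it was the lowest of the 6 libraries for Hmgcs1, Sqle, Insig1, Srebf2, Idi1 and Cyp51, and the highest for Fdft1. The same library was the lowest for 41.6% and the highest for 39.9% of the 12253 genes with a mean of at least 100 normalized counts. With length and GC offsets it was the lowest for 3, Insig1, Srebf2 and Idi1, and it remained the highest for Fdft1. Its deviation from the 6-library mean went from -0.29 to -0.11 on the log2 scale for Hmgcs1 and from -0.20 to -0.11 for Srebf2, but from -0.30 to -0.34 for Insig1. That deviation changed sign for Sqle, from -0.092 to 0.049, and for Cyp51, from -0.078 to 0.029. The low value of Insig1 in p300-ifKO replicate 1 was as large with the offsets as without them. The plot of deviations by library gives both versions.

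**Figure D3:**
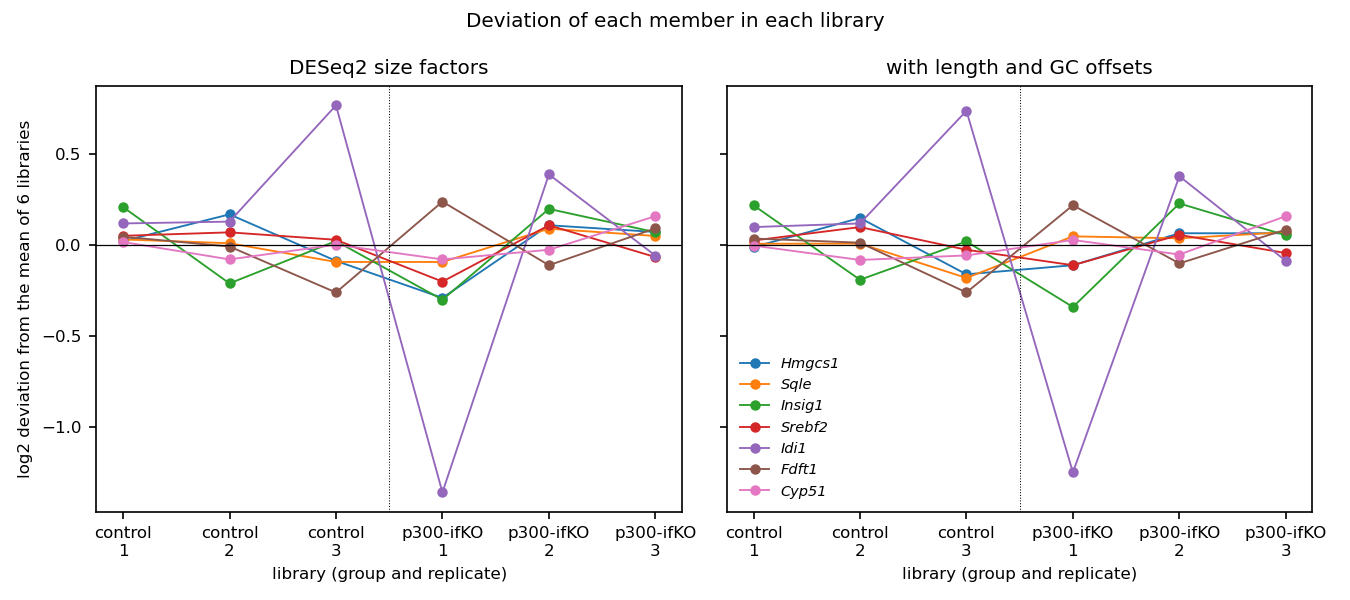
Log2 deviation (y axis) of each of the 7 genes from its own mean over the 6 libraries (x axis), with DESeq2 size factors (left) and with length and GC offsets (right); the dotted line divides controls from p300-ifKOs. The dip in p300-ifKO replicate 1 is present in 6 genes on the left, level with a control in Sqle and Cyp51. On the right it shrinks for Hmgcs1 and Srebf2 and is gone for Sqle and Cyp51. Idi1 swings most in both, from -1.36 to 0.77 on the left.

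Leaving out 1 library gave 0 calls among the 7 in each of 6 fits, although Idi1 had no adjusted p, and so could not be called, without p300-ifKO replicate 2. The median log2 fold change was 0.061 without p300-ifKO replicate 1, where 5 of the 7 were higher, and -0.12 without p300-ifKO replicate 2, where 2 were higher. Hmgcs1 ran from -0.13 without p300-ifKO replicate 2 to 0.054 without p300-ifKO replicate 1, Insig1 from -0.12 to 0.12, and Idi1 from -0.95 to -0.19. Without p300-ifKO replicate 2, 938 of the 11129 genes with an adjusted p passed the threshold (8.43%), and among them were 3 of the 34 other pathway genes that had one. Pmvk was higher by 0.60 on the log2 scale (adjusted p = 0.0246), Apoe was higher by 0.47 (adjusted p = 0.0447) and Lrp1, a large lipoprotein receptor, fell by 0.51 (adjusted p = 0.02), all by DESeq2. Pmvk (1713 bases) and Apoe (2138 bases) are short and Lrp1 (17717 bases) is long. With all libraries their log2 fold changes were 0.40, 0.29 and -0.20, and with the length and GC offsets added 0.22, 0.11 and -0.085. Leaving out p300-ifKO replicate 1 gave 0.16, 0.039 and -0.021.

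The fold changes of the pathway genes also went with length. The 44 genes were divided at their median exonic length of 4985 bases. Of the 22 shorter genes 15 were higher and 7 lower (median log2 fold change 0.13), and of the 22 longer genes 8 were higher and 14 lower (median -0.065). Over all genes with a mean of 10 or more normalized counts, 64.2% of those shorter than 4985 bases were higher (median 0.087), and 25.8% of the longer ones (median -0.11). With length and GC offsets, 16 of the shorter and 15 of the longer genes were higher, with medians of 0.051 and 0.083, and without p300-ifKO replicate 1 the medians were 0.025 and 0.0066. With these offsets the 5 other mevalonate arm genes were all higher (median 0.22, 0 called), from Mvk at 0.056 to Fdps at 0.42, and 9587 of 17053 genes tested were higher (median 0.028). The part of RNA quality or library preparation in the length trend was not tested.

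**Figure D4:**
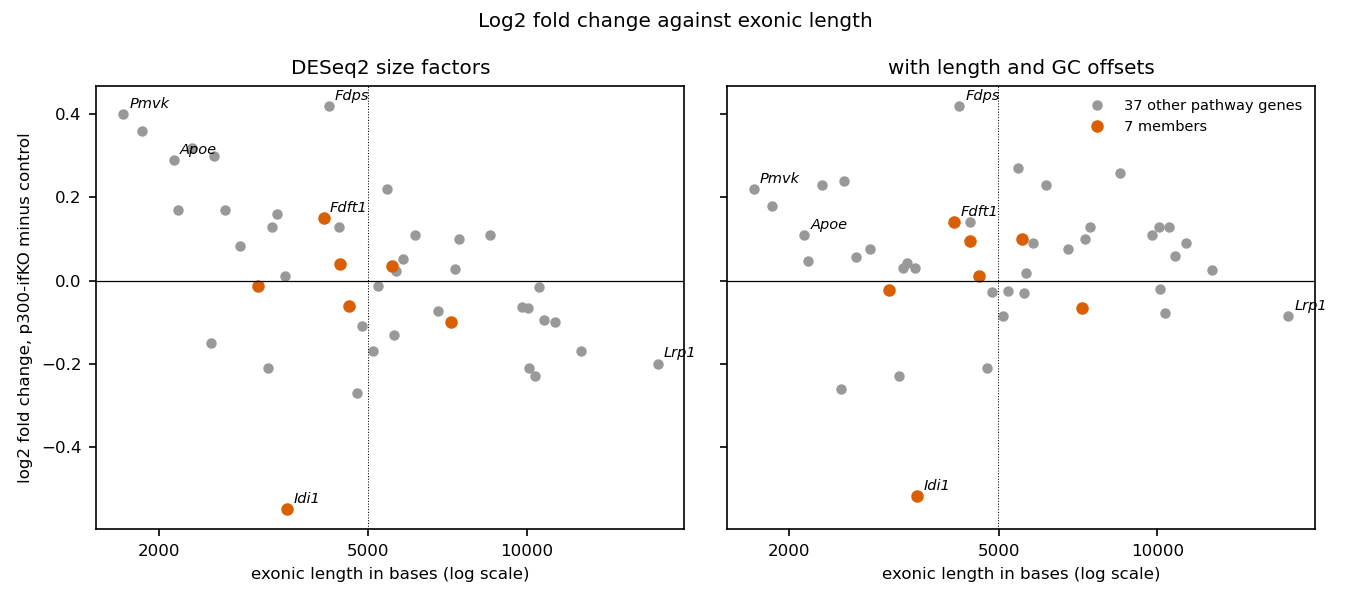
Log2 fold change (y axis, p300-ifKO minus control) against exonic length in bases (x axis, log scale) for the 7 genes (orange) and 37 other pathway genes (grey), with DESeq2 size factors (left) and with length and GC offsets (right); the dotted line is at 4985 bases. Short Pmvk and Apoe lie high and long Lrp1 low on the left, and all 3 lie nearer 0 on the right, while Idi1 and Fdft1 move little.

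Glial cells make much of the cholesterol of the adult brain, so their markers were read beside the sterol genes, and 0 markers passed the threshold in any of 9 cell type lists. The 8 oligodendrocyte markers summed to between 108353 and 147447 normalized counts in controls and between 117359 and 150601 in p300-ifKOs. Of these markers 7 were higher and 1 lower in p300-ifKOs, with a median log2 fold change of 0.19, which was 0.042 without p300-ifKO replicate 1. The 7 astrocyte markers summed to between 128272 and 130847 in controls and between 116788 and 124250 in p300-ifKOs, the 5 markers of oligodendrocyte precursors to between 5169 and 5397 and between 4803 and 5025, and the 7 microglial markers to between 7850 and 8571 and between 8699 and 9778. The sums of these 3 of the 9 lists did not overlap between the groups. Among single genes tested, 6.64% had groups that did not overlap. Each sum follows its most abundant markers. Slc1a2, the most abundant astrocyte marker, measured 68226, 67575 and 71532 in controls and 57802, 68192 and 59290 in p300-ifKOs, so its groups overlapped. The members of these 3 lists were mixed. Of the astrocyte markers 3 were higher and 4 lower (median log2 fold change -0.036), from Slc1a3 at -0.25 to Gfap at 0.17, of the precursor markers 2 were higher and 3 lower, and of the microglial markers 5 were higher and 2 lower. The 5 choroid plexus markers varied most, from 731 to 3778 in controls and from 1389 to 5467 in p300-ifKOs. Of these, 5 were higher and 0 lower (median log2 fold change 0.39, and 0.56 without p300-ifKO replicate 1). Replicate 3 had the highest sum of the choroid plexus markers in both groups. Of the 5 blood markers 0 were higher and 5 lower (median -0.18, and -0.57 without p300-ifKO replicate 1). No marker was at 0, and the part of these cells in the sterol gene values was not tested.

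The genes whose pattern over the 6 libraries was most like the mean of the 7 were sought among 12211 genes by the root mean square difference of log2 deviations. The 5 nearest were Haus6 (0.013), Smc6 (0.016), Rps6ka4 (0.018), Bzw1 (0.021) and Pfkfb2 (0.023). All were lowest in p300-ifKO replicate 1, as Haus6 shows with 299, 292 and 296 normalized counts in controls and 234, 315 and 299 in p300-ifKOs. The 7 genes themselves lay from 0.067 (Srebf2) to 0.27 (Fdft1) and 0.54 (Idi1) from their own mean. The 5 genes were picked as the nearest of 12211, so their distances cannot be set against those of the 7. Without Idi1 the 5 nearest were Morf4l1, Slc45a4, Kdsr, Xpc and Rnf103, so the choice rested on that gene. Against this mean Sqle lay at 0.025, level with Rnf103, and Fdft1 at 0.18.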

How the data were processed

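RNA-seq counts of 6 hippocampal libraries were used, grouped by sample titles. The deposited table holds raw counts for each gene, which the authors obtained from single-end reads of 50 bases with Trim Galore 0.6.4, STAR 2.6.1 and Rsubread on GRCm38, keeping reads above a mapping quality of 10. This limit lowers counts of genes with near-identical copies. The strand setting is not stated. Symbols, coordinates and exonic sequence came from GENCODE (55230 of 55471 genes matched by identifier). Totals lay between 23151568 and 28433823 counts. Whether mice came from separate litters is not stated.

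Genes were tested on all libraries with the DESeq2 Wald test (version 1.42.0 in R 4.3.3, two-sided), with Benjamini-Hochberg adjustment over all genes at 0.05 and the default filters. Intervals are 95% intervals. Alternatives were edgeR 4.0.16 (quasi-likelihood), limma-voom 3.58.1, TMM factors, a filter of 10 counts in 3 libraries, no filter, a replicate block, leaving out each library, length and GC offsets (mgcv 1.9.3, genes with a mean of 10 or more) and 1 surrogate variable (sva 3.50.0). The scripts were tested on simulated data. Genes were named by rule: the 7 genes, the checks Ep300 and Esr1, the lowest and highest log2 fold change of each list, Ebp, Dhcr7, the 5 most alike genes and genes gained when 1 library is left out. Arsi, Mvd, Ctsb, Cyp46a1, Acat2, Acat3, Slc1a2 and the overlapping genes were named after their values were seen. The members, lists and rules were chosen with earlier results of these data known. Some pathway genes are not reported here and were left out of the lists and their counts, so these do not cover whole arms of the pathway. Profiles used a pseudocount of 0.5. Promoter sequences are from RefSeq.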

Additional observations from a re-analysis of the deposited data

How the results depend on the processing

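Of the 7 genes, 0 were called under any of the 14 alternatives, of which the fit without p300-ifKO replicate 2 gave Idi1 no adjusted p, and of the 37 other pathway genes 0 were called under 13. The exception was the fit without p300-ifKO replicate 2, with 3, so that leaving out 1 library gave 0 to 3. Over all genes, leaving out 1 library gave 2 to 938 calls, and the replicate block gave 4 against 2 without it. Whether replicate numbers pair the mice is not stated. Deviations of same-numbered libraries correlated at 0.27, -0.28 and 0.14 over 17071 genes, and those of differently numbered libraries at between -0.45 and 0.43. With libraries that also differ by the length trend, these values cannot settle whether the mice were paired. The replicate block called 0 of the 7. The signs of several small differences changed. With 1 surrogate variable the log2 fold changes were 0.027 for Hmgcs1, 0.14 for Insig1, -0.0072 for Fdft1, 0.076 for Lbr, 0.037 for Mbtps2, -0.011 for Scap, 0.064 for Lrp1, -0.028 for Mvk, -0.073 for Npc2, 0.14 for Abca1 and -0.027 for Apoe. With length and GC offsets the log2 fold change of Hmgcs1 was 0.012. Leaving out 1 library at a time, the log2 fold change ran from -0.13 to 0.054 for Hmgcs1, from -0.12 to 0.12 for Insig1, from -0.00032 to 0.086 for Sqle, from -0.032 to 0.087 for Cyp51, from -0.53 to 0.01 for Lbr, from -0.0048 to 0.10 for Dhcr7 and from -0.0021 to 0.39 for Npc2. The cause of these changes was not tested. Srebf2 (-0.18 to -0.013), Idi1 (-0.95 to -0.02), Ebp (0.085 to 0.44), Fdps (0.15 to 0.56), Pmvk (0.071 to 0.60) and Mylip (-0.38 to -0.10) kept their sign under all 14 but not their size. The median of the 7 lay between -0.12 and 0.061 over the alternatives, and without Idi1, an alternative chosen after seeing the data, it was 0.012. Ep300 passed the threshold with 1 surrogate variable (-0.48, adjusted p = 0.00127 by DESeq2) as well as without p300-ifKO replicate 2. The precision of Idi1 is limited by its low counts.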
